A study of Mus musculus with 110 samples.

Results

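Epididymal white adipose tissue (eWAT), a visceral fat depot, was compared between mice fed a methionine-restricted diet (MetR_RT) and mice fed a control diet (Ctrl_RT), both housed at 22 °C. The comparison took 14 of the 110 libraries of the series, all 7 of MetR_RT and all 7 of Ctrl_RT. It was repeated without Ctrl_RT replicates 2, 4 and 5 and MetR_RT replicate 7, which left 6 libraries against 4. The mice were male wild-type C57BL/6N animals, housed singly and 16 weeks old at the end, and each library came from a different mouse. Both diets were free of cysteine (0%), so that the groups differed in methionine alone, at 0.86% in Ctrl_RT and 0.12% in MetR_RT, for 7 days. These shares are those of the series' description, and the methods give a slightly lower one for the control diet. The other 14 eWAT libraries came from mice on the same diets kept at 4 °C for a further 24 h, and entered the model only to share its estimate of the spread. The question was how this depot, which is known for storing fat rather than for burning it, responded to methionine restriction without cold.

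Methionine is an essential amino acid, and cysteine is made from it when the diet holds none. Restricting both is known to make mice leaner, to raise energy expenditure and to switch on the integrated stress response, in which the transcription factor ATF4 drives genes of amino acid supply. White adipocytes take up glucose and fatty acids, make fatty acids through Acaca and Fasn, and store them as triglyceride. Noradrenaline acts through beta-adrenergic receptors, adenylyl cyclase and cAMP to release the stored fat, and the receptors Hcar1 and Hcar2 oppose it by lowering cAMP. Epididymal fat lies against the epididymis and testis, so a dissected piece may carry cells of these organs.

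The depot was checked first. The mesothelial and visceral genes Wt1, Upk3b, Msln, Bnc1, Tcf21 and Upk1b were higher in the eWAT library in 196 of 196 pairs of an eWAT with an inguinal (iWAT) library at 22 °C, and the subcutaneous genes Tbx15, Shox2, En1, Hoxc9 and Hoxc10 were lower in 196 of 196. Gata6, another visceral gene, was higher in 189. The homeobox genes Hoxc8 and Irx3, which were listed as subcutaneous, went the other way in 169 and 175 of the pairs. Total counts per library ran from 22021114 to 31508742 with a median of 27065316, and the mitochondrial share from 2.45% to 4.50%. The differences between the diets did not pass exact two-sided permutation tests over the libraries (7 against 7, p = 0.081 for total counts and p = 0.381 for the mitochondrial share).

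Some libraries stood apart, and they did so on the genes of the neighbouring organs. Levels are given as normalized CPM, a gene's counts scaled to the size of the library with TMM factors. The summed level of 12 spermatogenic genes was 1452 CPM in Ctrl_RT replicate 4, 2574 CPM in Ctrl_RT replicate 5 and 2592 CPM in MetR_RT replicate 7. It was 126 CPM in Ctrl_RT replicate 2, and between 7.26 and 39.2 CPM in the other 10 libraries. The same 3 libraries were highest for 12 listed genes of ciliated epithelium, at 541, 658 and 620 CPM, with Ctrl_RT replicate 6 next at 264.3 CPM. Ctrl_RT replicate 2 held 10430 CPM of 22 genes of the epididymal epithelium. MetR_RT replicate 2, which stayed in the repeat, held 1637 CPM of them, against at most 417 CPM in any other library. The summed level of 12 mature adipocyte genes was 24590 to 34440 CPM in the 4 libraries and 42410 to 61700 CPM in the other 10. Among these 10 it was 46910 to 61700 CPM in Ctrl_RT (median 57290) and 42410 to 50790 CPM in MetR_RT (median 45260), so the groups overlapped with a lower median under restriction. In bulk tissue, fewer cells of a type and less RNA per cell cannot be told apart. Ctrl_RT replicate 7 held 471 CPM of 12 skeletal muscle genes against 26.3 to 95.4 CPM elsewhere, but 432 CPM of it was Acta1, and the muscle creatine kinase gene Ckm was at 0.0435 CPM there.

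**Figure D1:**
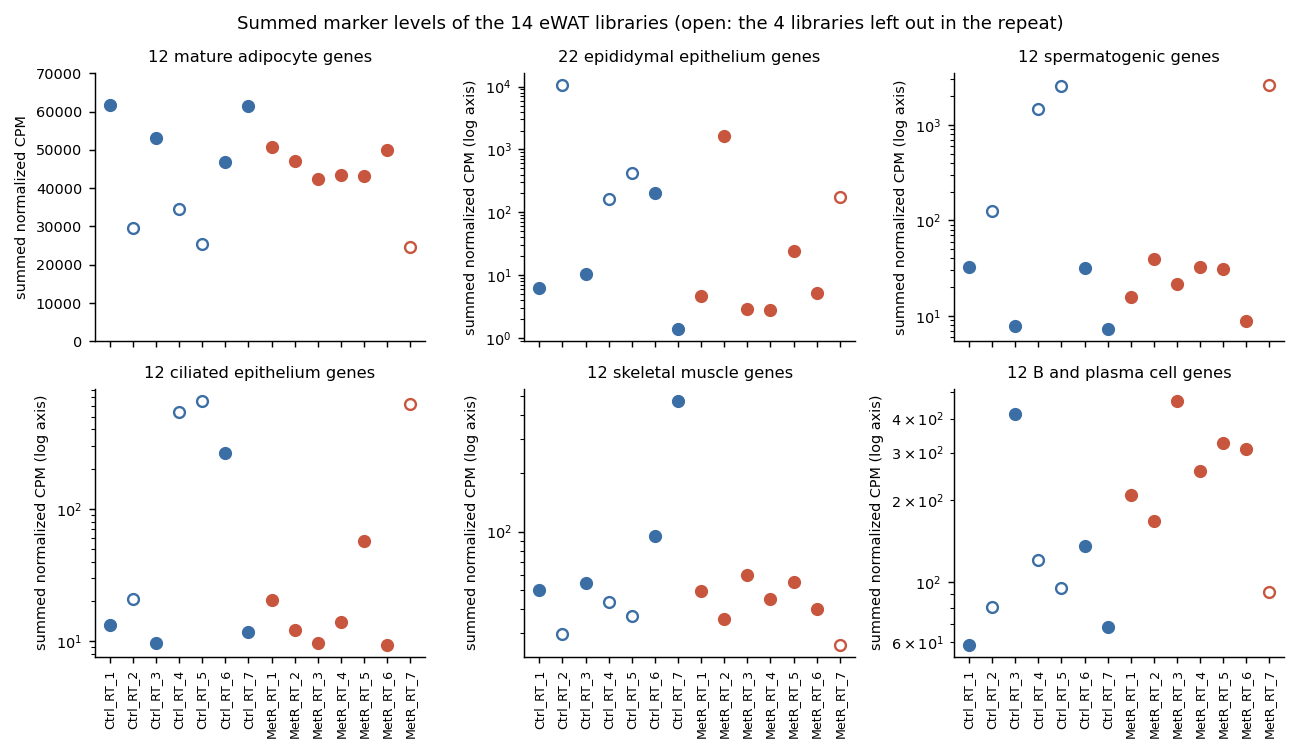
Summed levels of 6 marker lists in the 14 libraries in normalized CPM, on a linear axis for mature adipocyte genes and on log axes for the others (blue, Ctrl_RT; red, MetR_RT; open circles, the 4 libraries left out in the repeat). Ctrl_RT replicates 4 and 5 and MetR_RT replicate 7 lie at 1452 to 2592 CPM for spermatogenic genes and all 4 open circles lie at 34440 CPM or lower for mature adipocyte genes.

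A gene was called when its adjusted p was under 0.05 and its fold change at least 1.5. With all libraries, 6 of 31464 genes tested were called (0.0191%), all of them higher in MetR_RT, and 0 lower (0%). These were Nr1d1, Slc5a3, Spred2, Sparcl1, Arhgef37 and Gm20544. At an unadjusted p under 0.05 there were 2711 genes (8.62%), of which 1207 were higher (3.84%) and 1504 lower (4.78%). Without the 4 libraries, 32 of 27786 genes were called (0.115%), 9 higher (0.0324%) and 23 lower (0.0828%). Here 2622 genes had an unadjusted p under 0.05 (9.44%), 1260 of them higher (4.53%) and 1362 lower (4.9%). Spred2, Arhgef37 and Gm20544 were called both times. All 32 genes had the same sign with all libraries, 30 of them at an unadjusted p under 0.05, and their median absolute log2 fold change was 1.15 without the 4 libraries and 0.89 with them. The repeat used a part of the same libraries and picked these genes, so this likeness is not an independent check. The common dispersion of the counts, a measure of the spread between libraries of a group, was 0.455 with all libraries and 0.144 without the 4.

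The count with all libraries depended on single libraries. Leaving out MetR_RT replicate 7 alone gave 2487 calls, 2242 of them lower in MetR_RT. In 2005 of the 2242 genes Ctrl_RT replicates 4 and 5 were the 2 highest of the 13 libraries, and 10 of the 12 spermatogenic genes were among the 2242. Leaving out any other library gave 0 to 33 calls, and 8 of the 14 omissions gave 0 (Ctrl_RT replicates 1 and 4 and MetR_RT replicates 1 to 6), with 2058 to 3017 genes at an unadjusted p under 0.05. In the repeat, leaving out a further library gave 11 to 52 calls. The lowest counts were 11 without Ctrl_RT replicate 1 and 14 without Ctrl_RT replicate 7, and 52 genes were called without Ctrl_RT replicate 3 or without MetR_RT replicate 1. Hivep3, Cyp4f17, Hcar2, Ehhadh, C6, Adcy5, Spred2 and Arhgef37 were called in all 10 of these omissions. With only the 22 °C libraries in the model, edgeR called 0 genes with all libraries (1647 at an unadjusted p under 0.05) and 1 gene, Gm20544, without the 4 (2150). With the libraries of both temperatures, DESeq2 called 131 genes with all libraries and 166 without the 4.

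Nr1d1, which encodes the circadian repressor REV-ERBα, was among the genes that rose. Its level ran from 103 to 181 CPM in the 7 Ctrl_RT libraries (median 135) and from 168 to 326 CPM in the 7 MetR_RT libraries (median 280.9). The groups overlapped only through MetR_RT replicate 7, the lowest of its group, which lay below the highest Ctrl_RT library. Expressed as a log2 fold change, the rise was 0.96 ± 0.17 (SE; adjusted p = 0.0493). The call held in 4 of the 14 omissions of a single library and in 5 of 10 other settings. Without the 4 libraries the Ctrl_RT values were 130, 161, 181 and 146 CPM against a median of 283.8 CPM in the 6 MetR_RT libraries, and the groups no longer overlapped. The difference was then 0.88 ± 0.19 on the log2 scale, with an adjusted p of 0.0648, just outside the threshold. In the annotation, 8.55% of its exon bases are shared with Thra on the opposite strand, whose log2 fold change was 0.38 ± 0.10 with all libraries. The counting is not stated to use strand.

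Other genes of the clock list had fold changes on the same side as Nr1d1. Of its 18 members, 7 were higher and 0 lower at an unadjusted p under 0.05 with all libraries, and 9 higher and 0 lower without the 4. Their median log2 fold change was 0.31 and 0.41, beside -0.13 and -0.02 over all genes tested. At the same p, 3.84% of all genes tested were higher and 4.78% lower with all libraries, and 4.53% and 4.9% without the 4. These shares are the background for the list counts that follow as well. Nr1d1 was the only member called. Cry2, a component of the repressor arm, had a log2 fold change of 0.50 ± 0.11 with all libraries and 0.48 ± 0.12 without the 4. Nr1d2, the paralogue of Nr1d1, had 0.65 ± 0.14 and 0.65 ± 0.18. The log2 fold change of Dbp, an output gene of the clock, was 1.18 with all libraries and 1.32 without the 4, and that of Tef, of the same family of factors, 0.53 and 0.59. Rora, which activates what Nr1d1 represses, had 0.38 ± 0.09 and 0.29 ± 0.09. The activators Clock and Arntl had 0.04 and -0.27 with all libraries, and Npas2 had -0.61, all at an unadjusted p over 0.05. For none of the 18 was the difference from its iWAT response called. The methods place all sacrifices within a morning window of the light phase, and the order of the groups within it is not stated. The part of the time of day in these differences was not tested.

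The promoters of clock genes are shown because members of the list had fold changes on the same side, and clock factors are known to bind the letters CACGTG (the E-box, which reads the same on both strands), and ROR and REV-ERB factors the letters AGGTCA. The 250 bases before each start in RefSeq (GRCm38.p6) were searched on both strands, and 16 of the 18 genes matched an entry. These genes had 21 windows, as some have more than 1 start. The letters CACGTG stood in 6 of the 21, in 5 of the 16 genes (Bhlhe41, Ciart, Cry1, Per1 and Tef), and in 6.02% of all 32851 windows. The letters AGGTCA stood in 4 of the 21 windows, in 4 of the 16 genes (Clock, Nfil3, Nr1d2 and Per1), and in 14% of all windows. A match is a string of letters and not a shown binding site. Capitals mark CACGTG in Tef and AGGTCA in Nr1d2, 127 and 77 bases before the start. In Nr1d1 the letters searched were not in this window. However, the bases after this RefSeq start were not found in an annotated transcript of Nr1d1, unlike those of Nr1d2 and Tef. The annotated gene begins at chr11:98775333, so the window may not lie directly before the start in use.
Nr1d1, chr11:98775378-98775627, minus strand: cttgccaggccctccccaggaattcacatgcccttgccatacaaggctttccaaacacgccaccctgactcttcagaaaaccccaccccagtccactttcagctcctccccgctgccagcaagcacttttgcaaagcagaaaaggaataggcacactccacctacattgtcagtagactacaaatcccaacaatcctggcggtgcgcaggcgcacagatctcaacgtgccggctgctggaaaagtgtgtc
Nr1d2, chr14:18239107-18239356, minus strand: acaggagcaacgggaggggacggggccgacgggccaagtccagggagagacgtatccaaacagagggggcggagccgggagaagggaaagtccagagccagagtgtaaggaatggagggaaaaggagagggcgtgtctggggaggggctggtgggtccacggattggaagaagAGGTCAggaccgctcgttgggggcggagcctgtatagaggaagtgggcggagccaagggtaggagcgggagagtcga
Tef, chr15:81802423-81802672, plus strand: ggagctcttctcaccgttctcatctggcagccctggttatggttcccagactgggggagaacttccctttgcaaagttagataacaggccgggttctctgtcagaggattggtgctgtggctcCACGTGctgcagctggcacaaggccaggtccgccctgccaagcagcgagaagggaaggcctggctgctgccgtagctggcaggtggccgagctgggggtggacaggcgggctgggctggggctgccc

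The other genes that rose with all libraries are described one by one, and a shared role was not tested. Slc5a3, the sodium-coupled transporter of myo-inositol, was 44.3 to 122 CPM in the 7 Ctrl_RT libraries (median 68.2) and 132 to 232 CPM in the 7 MetR_RT libraries (median 198). The groups did not overlap, and the log2 fold change was 1.35 ± 0.24 (adjusted p = 0.0493). Without the 4 libraries it was 1.31 ± 0.30, with an adjusted p of 0.0836. Mrps6 shares 159 of the 10913 exon bases of Slc5a3 and had a log2 fold change of 0.65 ± 0.20 with all libraries. With all libraries the 7 against 7 did not overlap for 20 genes that were higher (0.0636%) and 16 that were lower (0.0509%) of those tested, and of the 6 called genes Slc5a3 and Gm20544 were among them. Without the 4 libraries, 228 higher (0.821%) and 310 lower genes (1.12%) did not overlap.

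Spred2, an inhibitor of Ras and MAP kinase signaling, was called both times. Its 7 Ctrl_RT libraries held 33.96 to 49.7 CPM (median 39.4) and its MetR_RT libraries 45.9 to 67.96 CPM (median 62.3), with MetR_RT replicate 7 lowest and inside the control range. Its log2 fold change was 0.61 ± 0.10 with all libraries (adjusted p = 0.0324) and 0.69 ± 0.10 without the 4 (adjusted p = 0.00196). Arhgef37, a member of a family of guanine nucleotide exchange factors, was 17.8 to 65.4 CPM in Ctrl_RT (median 27.8) and 58.3 to 117 CPM in MetR_RT (median 75.5). Ctrl_RT replicate 2, at 65.4 CPM, was the only control library inside the MetR_RT range. The log2 fold change of Arhgef37 was 1.25 ± 0.21 with all libraries (adjusted p = 0.0324) and 1.53 ± 0.21 without the 4 (adjusted p = 0.00196). Sparcl1, a secreted matrix-associated protein related to SPARC, was 143 to 251.6 CPM in Ctrl_RT (median 187) and 234 to 397 CPM in MetR_RT (median 301). MetR_RT replicate 7 was again the lowest of its group. For Sparcl1 the log2 fold change was 0.67 ± 0.12 with all libraries (adjusted p = 0.0493) and 0.54 ± 0.11 without the 4 (adjusted p = 0.0557). Gm20544, a processed transcript at chr18:75365332-75367088 on the minus strand, was 9.43 to 16.2 CPM in Ctrl_RT (median 15.01) and 18.6 to 30.4 CPM in MetR_RT (median 28.96), without overlap. For this transcript the log2 fold change was 0.90 ± 0.15 with all libraries (adjusted p = 0.0324) and 0.85 ± 0.16 without the 4 (adjusted p = 0.0210).

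**Figure D2:**
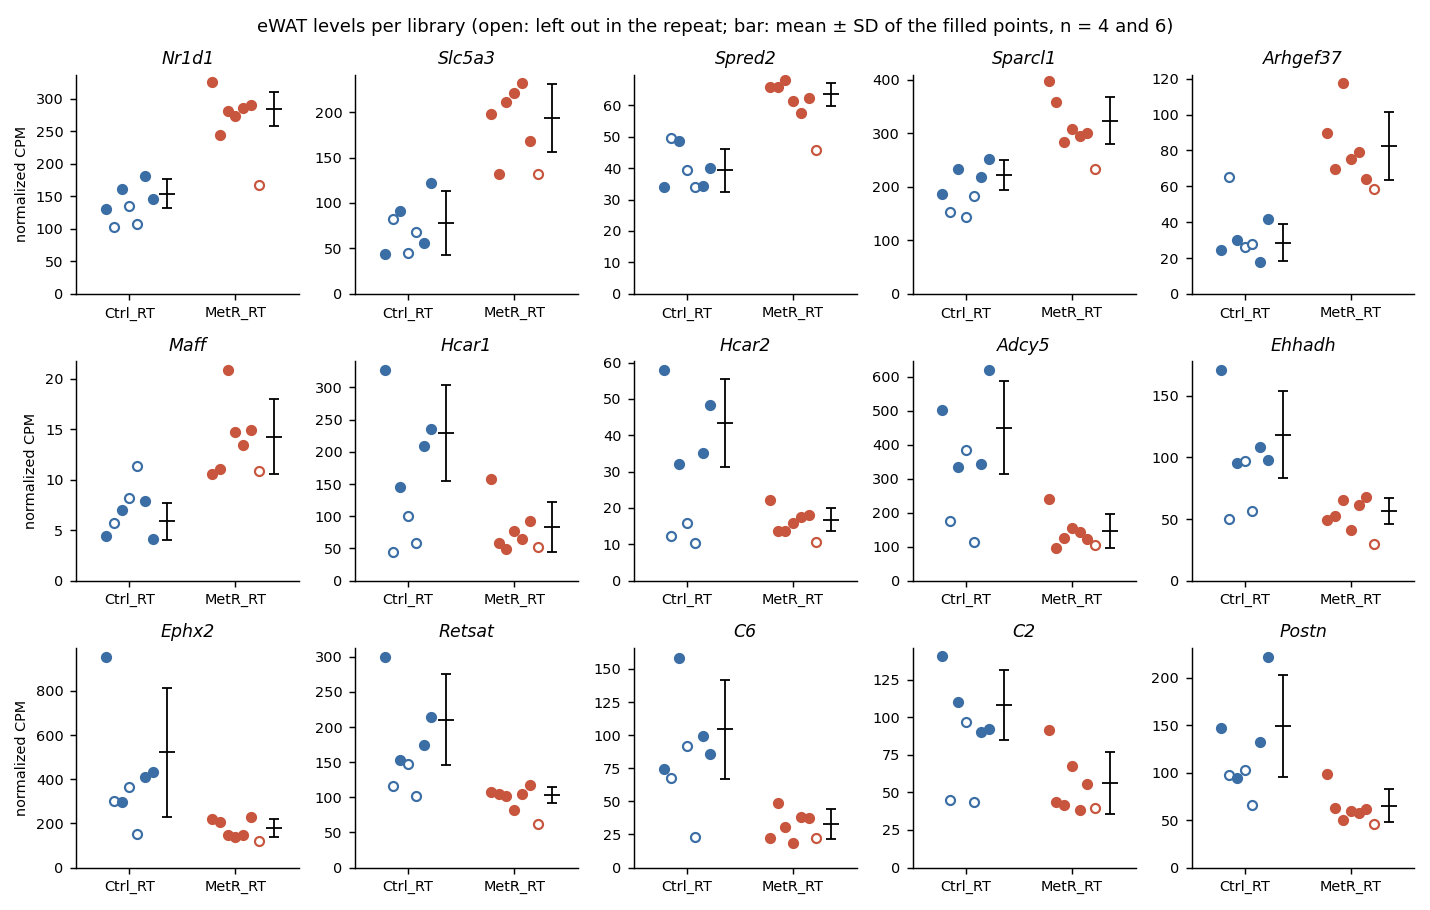
Levels of 15 called genes in each of the 14 libraries in normalized CPM (blue, Ctrl_RT; red, MetR_RT; open circles, the 4 libraries left out in the repeat; bars, mean ± SD of the filled points, n = 4 and 6). In the lower rows the open blue circles often lie near the red points: for Hcar2 they lie at 10.5 to 15.9 CPM and the filled blue points at 32.1 to 57.9 CPM.

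Without the 4 libraries, 3 genes that set cAMP in adipocytes fell together. Hcar1, the lactate receptor, and Hcar2, the receptor of 3-hydroxybutyrate and niacin, both restrain lipolysis, and Adcy5 is an adenylyl cyclase. Hcar2 was 57.9, 32.1, 35.1 and 48.4 CPM in the 4 Ctrl_RT libraries and 13.7 to 22.2 CPM in the 6 MetR_RT libraries (median 16.6), without overlap, and the log2 fold change was -1.37 ± 0.20 (adjusted p = 0.00196). Hcar1 was 326, 146, 209 and 235 CPM in Ctrl_RT and 49.4 to 157 CPM in MetR_RT (median 71.2), with MetR_RT replicate 1 just above the lowest control. The log2 fold change of Hcar1 was -1.47 ± 0.24 (adjusted p = 0.00705). Adcy5 was 502, 336, 343 and 618 CPM in Ctrl_RT and 96.1 to 241 CPM in MetR_RT (median 135), without overlap, and its log2 fold change was -1.61 ± 0.26 (adjusted p = 0.00548). With all libraries none of the 3 was called. The log2 fold changes were then -0.93 ± 0.29, -1.02 ± 0.32 and -1.32 ± 0.29, with adjusted p of 0.329, 0.338 and 0.0792. Ctrl_RT replicates 2, 4 and 5, which held less mature adipocyte RNA, had 12.4, 15.9 and 10.5 CPM of Hcar2, within or below the range of MetR_RT.

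Hcar1 and Hcar2 lie next to each other on chromosome 5, at chr5:123876736-123880020 and chr5:123863570-123865499, both on the minus strand, and are related in sequence. Of the 24 genes of adrenergic and cAMP signaling, 6 were lower and 3 higher at an unadjusted p under 0.05 without the 4 libraries, with a median log2 fold change of -0.17. With all libraries 3 were lower and 4 higher, with a median of -0.01. The beta-adrenergic receptor genes Adrb1 and Adrb3 had log2 fold changes of -0.76 and -0.39 without the 4, at unadjusted p of 0.0294 and 0.0258. Adcy3, another adenylyl cyclase, went the other way, with 0.45 ± 0.12 (adjusted p = 0.172). Ptger3, a receptor of prostaglandin E2, had 1.40 at an unadjusted p of 0.00677. Over the same libraries, 4 of the 12 mature adipocyte genes were lower and 2 higher at an unadjusted p under 0.05, with a median log2 fold change of -0.07. The part of adipocyte content in the fall of Hcar1, Hcar2 and Adcy5 was not tested.

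Of the genes of fatty acid oxidation, 1 was called without the 4 libraries and 0 with all. Ehhadh, the peroxisomal bifunctional enzyme of fatty acid oxidation, was 171, 95.9, 109 and 98.2 CPM in the 4 Ctrl_RT libraries and 40.98 to 68.3 CPM in the 6 MetR_RT libraries (median 56.9), without overlap, and the log2 fold change was -1.07 ± 0.16 (adjusted p = 0.00196). With all libraries this was -0.88 ± 0.20 (adjusted p = 0.0909). Of the 25 genes of fatty acid oxidation, 9 were lower and 1 higher at an unadjusted p under 0.05 without the 4 libraries, and 3 lower and 1 higher with all. The median log2 fold changes were -0.21 and -0.04. The mitochondrial carrier of acylcarnitines, Slc25a20, had -0.45 ± 0.13 and was not called. The acyl-CoA thioesterase Acot2 was the member on the higher side, with 0.59 ± 0.23.

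Further enzymes of lipid metabolism fell without the 4 libraries. Ephx2, the soluble epoxide hydrolase, was 952, 295.5, 409 and 432 CPM in Ctrl_RT and 137 to 227 CPM in MetR_RT (median 178), with a log2 fold change of -1.53 ± 0.27 (adjusted p = 0.0135). Cyp4f17, a cytochrome P450 of the family that hydroxylates fatty acids, was 112, 53.7, 91.5 and 56.7 CPM in Ctrl_RT and 24.4 to 36.7 CPM in MetR_RT (median 29.3), with -1.41 ± 0.20 (adjusted p = 0.00196). Both groups of values were separate, and Ctrl_RT replicate 1 was the highest library for each gene. Retsat, the retinol saturase, which was chosen after its values were seen, was 300.2, 153, 175 and 214 CPM in Ctrl_RT and 81.99 to 118 CPM in MetR_RT (median 105), again without overlap, and the log2 fold change was -1.03 ± 0.18 (adjusted p = 0.0109). With all libraries the log2 fold changes of Ephx2, Cyp4f17 and Retsat were -1.27 ± 0.28, -1.12 ± 0.23 and -0.83 ± 0.20 (adjusted p = 0.0792, 0.0679 and 0.107). The lipase Pnpla2, which starts lipolysis, was separate in the same direction, with -0.60 ± 0.17 and an adjusted p of 0.183.

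Genes of fatty acid synthesis lay on the opposite side, but with a wide spread. Of 25 genes of de novo lipogenesis, 14 were higher and 1 lower at an unadjusted p under 0.05 without the 4 libraries, and 6 higher and 0 lower with all. The median log2 fold changes were 0.68 and 0.60, and no member was called. Fasn, the fatty acid synthase, was 3862, 16040, 6979 and 8954 CPM in the 4 Ctrl_RT libraries and 4061 to 60720 CPM in the 6 MetR_RT libraries (median 28140), and its log2 fold change was 1.68 ± 0.63 (adjusted p = 0.372). Acaca, the acetyl-CoA carboxylase, was 428, 946, 630 and 627 CPM in Ctrl_RT and 424 to 3036 CPM in MetR_RT (median 1479), with 1.26 ± 0.44 (adjusted p = 0.332). MetR_RT replicate 1 was the lowest and MetR_RT replicate 3 the highest of the 6 for both, and the groups overlapped. For Fasn, MetR_RT replicates 1 and 4 lay below the highest of the 4 controls, and for Acaca MetR_RT replicate 1 did. Of the libraries left out, Ctrl_RT replicates 2, 4 and 5 had 8330, 3068 and 26900 CPM of Fasn and 472.5, 288.2 and 1333 CPM of Acaca. Ctrl_RT replicate 5 was thus the highest control for both. MetR_RT replicate 7, also left out, had 3464 and 253.6 CPM. Pparg, the regulator of adipocyte genes, was separate, with 217, 258.4, 132 and 191 CPM in Ctrl_RT and 274.5 to 322 CPM in MetR_RT (median 308). The log2 fold change of Pparg was 0.61 ± 0.14 (adjusted p = 0.0836), and 0.67 ± 0.16 with all libraries (adjusted p = 0.0988).

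Called lower without the 4 libraries were 2 of 22 complement genes and 1 of 28 genes of collagens and matrix, and with all libraries 0 of either list. C6, a component of the membrane attack complex, was 74.4, 159, 99.0 and 85.7 CPM in the 4 Ctrl_RT libraries and 18.7 to 48.9 CPM in the 6 MetR_RT libraries (median 33.99), without overlap. Its log2 fold change was -1.68 ± 0.25 (adjusted p = 0.00196), and -1.46 ± 0.27 with all libraries (adjusted p = 0.0665). C2, a protease of the classical pathway, was 141, 110, 89.9 and 92.3 CPM in Ctrl_RT and 38.5 to 91.5 CPM in MetR_RT (median 49.4), with -0.95 ± 0.20 (adjusted p = 0.0480). MetR_RT replicate 1 lay among the controls for C2, and 1656 of the 3872 exon bases of C2 are shared with the overlapping annotation Gm20547. Of 22 complement genes, 7 were lower and 1 higher at an unadjusted p under 0.05 without the 4 libraries, and 6 lower and 2 higher with all, with median log2 fold changes of -0.40 and -0.32. The genes of the C1q complex, which macrophages make, were lower at an unadjusted p under 0.05 and not called, as C1qb shows with -0.68 ± 0.24 (adjusted p = 0.329). The 12 macrophage genes had a median log2 fold change of -0.39, with 3 lower and 0 higher at an unadjusted p under 0.05. Their summed level was 556 to 872 CPM in Ctrl_RT and 391 to 689 CPM in MetR_RT, and its part in the complement genes was not tested.

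Postn, which encodes the matrix protein periostin, was 147, 94.2, 133 and 223 CPM in the 4 Ctrl_RT libraries and 49.8 to 99.1 CPM in the 6 MetR_RT libraries (median 60.7). MetR_RT replicate 1 overlapped the lowest control. The log2 fold change was -1.20 ± 0.22 (adjusted p = 0.0199), and -0.98 ± 0.22 with all libraries (adjusted p = 0.0792). Of 28 genes of collagens and matrix, 7 were lower and 1 higher at an unadjusted p under 0.05 without the 4 libraries, and 9 lower and 1 higher with all. The fibrillar collagen Col1a1 was 608, 544, 487 and 749 CPM in Ctrl_RT and 248.4 to 416 CPM in MetR_RT (median 313), without overlap, and its log2 fold change of -0.92 ± 0.22 was not called (adjusted p = 0.0960). The inhibitor of metalloproteinases Timp3 was the member on the higher side, with 0.31 ± 0.12.

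**Figure D3:**
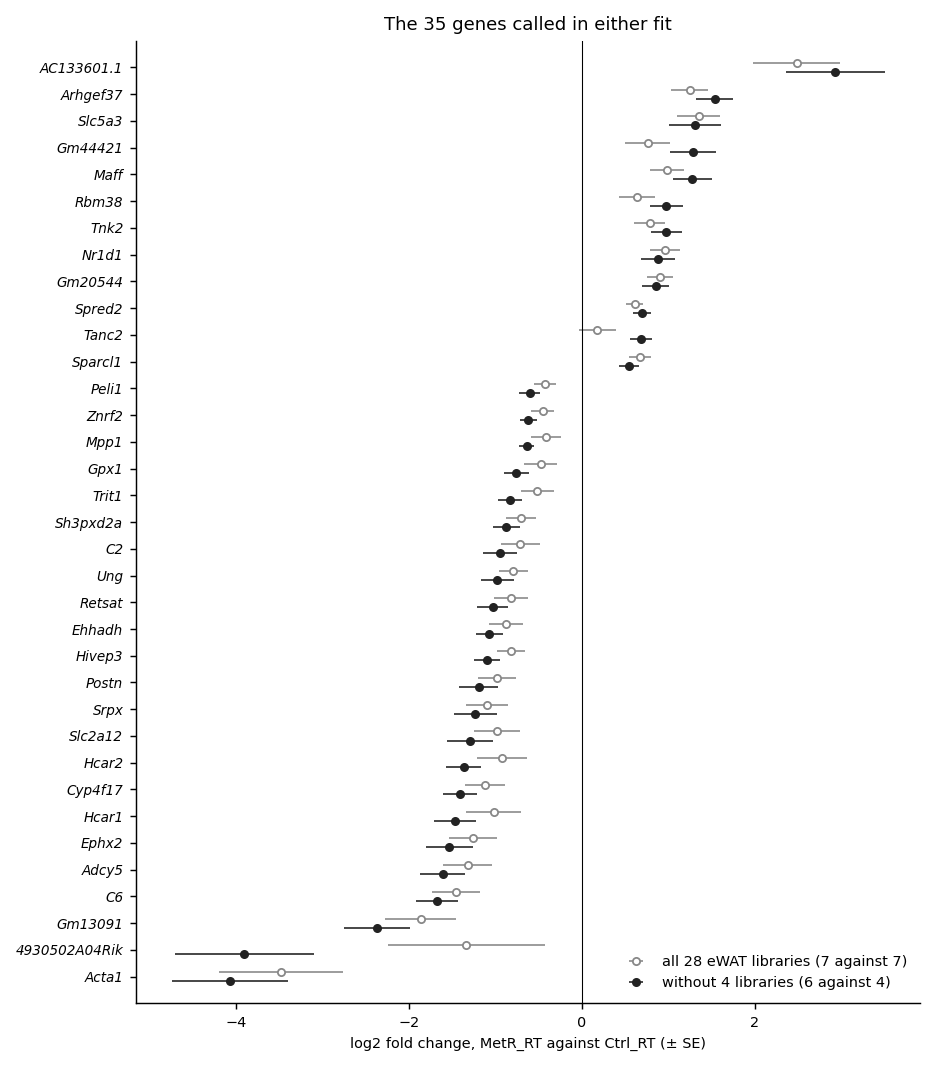
Log2 fold change of MetR_RT against Ctrl_RT, with its standard error, for the 35 genes called with all libraries (open grey) or without 4 of them (filled black). The sign is the same for both in each gene drawn, and Acta1 lies lowest, at -3.48 with all libraries and -4.07 without the 4.

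The remaining calls without the 4 libraries had mixed roles. Hivep3, a zinc finger transcription factor, was 24.7, 17.1, 25.6 and 28.4 CPM in Ctrl_RT and 8.62 to 13.8 CPM in MetR_RT (median 10.7), with a log2 fold change of -1.10 ± 0.15 (adjusted p = 0.00192). Mpp1, a membrane scaffold protein of red cells and other cells, was 230, 182, 178 and 245.3 CPM in Ctrl_RT and 125 to 150 CPM in MetR_RT (median 132), with -0.64 ± 0.09 (adjusted p = 0.00192). For both, these groups were separate. With all libraries Hivep3 had -0.82 ± 0.16 (adjusted p = 0.0679) and Mpp1 -0.42 ± 0.17 (adjusted p = 0.495), and neither was called. Of the controls left out, Ctrl_RT replicates 2, 4 and 5 had 97.8, 181.6 and 75.9 CPM of Mpp1. Replicates 2 and 5 thus lay below the MetR_RT range given. Of the 6 erythroid genes, 5 were lower at an unadjusted p under 0.05, and their summed level was 154 to 258.4 CPM in Ctrl_RT and 109 to 170 CPM in MetR_RT. Ctrl_RT replicates 2, 4 and 5, which were left out, held 156, 113 and 245.4 CPM of them. The part of erythroid content in the fall of Mpp1 was not tested. The ubiquitin ligase Znrf2 had -0.62 ± 0.10 (adjusted p = 0.00487), the glucose transporter Slc2a12 -1.30 ± 0.26 (adjusted p = 0.0410), and the antisense transcript Gm13091 -2.37 ± 0.38 (adjusted p = 0.00548). On the higher side, the small Maf factor Maff was 4.48, 6.98, 7.91 and 4.17 CPM in Ctrl_RT and 10.5 to 20.9 CPM in MetR_RT (median 14.1). Its log2 fold change was 1.27 ± 0.23 (adjusted p = 0.0135). The long noncoding RNA Gm44421, below 4 CPM in each library, had 1.29 ± 0.26 (adjusted p = 0.0441). With all libraries the log2 fold changes of Znrf2, Slc2a12, Gm13091, Maff and Gm44421 were -0.45, -0.98, -1.865, 0.98 and 0.76. Their adjusted p was then 0.287, 0.207, 0.0792, 0.0679 and 0.3895, and none was called.

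Acta1, the skeletal muscle actin, had the largest absolute log2 fold change of the 32. It was 19.3, 18.1, 63.4 and 432 CPM in Ctrl_RT and 3.74 to 11.9 CPM in MetR_RT (median 8.40), and the log2 fold change was -4.07 ± 0.67 (adjusted p = 0.00705). The highest value was that of Ctrl_RT replicate 7, and without this library Acta1 was no longer called. Of the other 11 skeletal muscle genes, Myl1 was highest there, at 35.3 CPM, and it reached 48.3 CPM in MetR_RT replicate 3. The smooth muscle actin Acta2, which is related to Acta1 in sequence, was 484 CPM in Ctrl_RT replicate 7 and at most 137 CPM in the other 13 libraries. A further 11 called genes are named after their values were seen. Trit1, Sh3pxd2a, Gpx1, Ung, Srpx, Peli1 and 4930502A04Rik fell, with log2 fold changes from -3.90 to -0.61, and Tanc2, Tnk2, Rbm38 and AC133601.1 rose, with 0.68 to 2.93. The outermost values belong to 4930502A04Rik and AC133601.1, long noncoding RNAs with under 1 CPM in each library. Exon bases shared with a gene on the opposite strand made up 18.4% of Retsat (Gm45053), 9.61% of Slc2a12 (Tbpl1) and 7.91% of Rbm38 (Gm14453), and reads there cannot be told apart without strand. Gpx1, the cytosolic glutathione peroxidase, whose active site holds selenocysteine, was 110, 82.4, 85.6 and 101 CPM in Ctrl_RT and 42.3 to 74.1 CPM in MetR_RT (median 52.3), with a log2 fold change of -0.76 ± 0.15 (adjusted p = 0.0256).

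No gene of the amino acid response itself was called in this depot. Of 32 genes of the integrated stress response and ATF4, 4 were higher and 7 lower at an unadjusted p under 0.05 with all libraries, and 5 higher and 3 lower without the 4. The median log2 fold changes were 0.00 and 0.11. Trib3, a pseudokinase induced by ATF4, was 4.61 to 8.99 CPM in the 7 Ctrl_RT libraries (median 7.47) and 9.89 to 15.4 CPM in the 7 MetR_RT libraries (median 11.5). The groups did not overlap, and the log2 fold change was 0.79 ± 0.17 (adjusted p = 0.0792), and 0.67 ± 0.19 without the 4 (adjusted p = 0.215). Atf5 had 0.46 ± 0.15 and Cebpg 0.35 ± 0.10 with all libraries, and the proline synthesis enzyme Aldh18a1 had -0.54 ± 0.13. Asparagine synthetase, Asns, which ATF4 is known to induce, had -0.41 at an unadjusted p of 0.0234. Of 26 genes of the methionine cycle and transsulfuration, none was called, with 2 higher and 3 lower at an unadjusted p under 0.05 with all libraries. The ER chaperone list had 11 of 21 members lower and 0 higher with all libraries, and 4 lower and 1 higher without the 4. In Pdia3, a disulfide isomerase of the ER, Ctrl_RT replicate 2 was highest at 525 CPM, against 245.6 to 332 CPM in the other Ctrl_RT libraries and 221 to 271.1 CPM in MetR_RT.

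Over the 23 pathway lists, 1 of 513 tested members was called with all libraries and 7 without the 4, from 4 lists. Over all genes tested, 0.0191% were called with all libraries and 0.115% without the 4. The lists were chosen with earlier results of these data known. Markers of lymphocytes lay mostly on the higher side. All 12 T and NK cell genes had a log2 fold change over 0 without the 4 libraries, 3 of them at an unadjusted p under 0.05, with a median of 0.57. Their summed level was 5.95 to 15.9 CPM in Ctrl_RT and 11.4 to 18.2 CPM in MetR_RT, and the groups overlapped through Ctrl_RT replicate 3. The sum of 12 B and plasma cell genes was 58.6 to 417 CPM in Ctrl_RT and 167 to 465.8 CPM in MetR_RT, with Ctrl_RT replicate 3 again inside the MetR_RT range. Most of this sum was Ighm, at 368.8 CPM in Ctrl_RT replicate 3 and 447.8 CPM in MetR_RT replicate 3. Of the 12 genes, 10 had a log2 fold change over 0 and 2 under it without the 4 libraries, and 0 had an unadjusted p under 0.05.

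The response of eWAT was compared with that of iWAT, the inguinal subcutaneous depot, in the same 14 mice. In a joint fit, iWAT had 2120 calls (6.74%), 790 higher (2.51%) and 1330 lower (4.23%). The difference between the depots was itself called for 437 of 31461 genes (1.39%), with the eWAT change above that of iWAT for 311 (0.989%) and below for 126 (0.4%). With the mouse as a block, 239 genes were called (204 above, 35 below), 199 of them shared with the 437. Without the 4 eWAT libraries, 416 were called, of which 250 were shared. The split was then nearly even, with 220 above and 196 below. With the block and without the 4 mice it was 359 above and 143 below.

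Members of the lists of oxidation and respiration with a called difference between the depots numbered 4 to 6 a list with all libraries. In fatty acid oxidation, 19 of 25 genes were called higher in iWAT, with a median log2 fold change of 0.91, and the difference was called for 6 (3 with the mouse as a block, 14 without the 4 eWAT libraries, 5 with the block and without the 4 mice), each with the eWAT change below. Slc25a20 was 57.9 to 138 CPM in eWAT Ctrl_RT (median 84.2, joint scale), 51.8 to 90.5 CPM in eWAT MetR_RT (median 80), 103 to 180 CPM in iWAT Ctrl_RT (median 136) and 132 to 541 CPM in iWAT MetR_RT (median 257.8). The log2 difference between the responses was -1.65 ± 0.35 (adjusted p = 0.0179, and 0.0487 with the mouse as a block), and the call was lost with the block and without the 4 mice (adjusted p = 0.0602). Plin5, which ties lipid droplets to mitochondria, had a difference of -1.91 ± 0.40 (adjusted p = 0.0162, and 0.0539 with the block). Of 27 brown and beige genes, 18 were called higher in iWAT (median log2 fold change 1.67) and none in eWAT (median -0.18 with all libraries and -0.02 without the 4), and the difference was called for 4, for 1 with the block and for 2 without the 4 eWAT libraries. Of the 29 nuclear genes of the respiratory chain, 28 were called higher in iWAT (median 0.94), none in eWAT (median 0.17 and 0.11), and the difference was called for 4, for none with the block and for 3 without the 4 eWAT libraries.

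**Figure D4:**
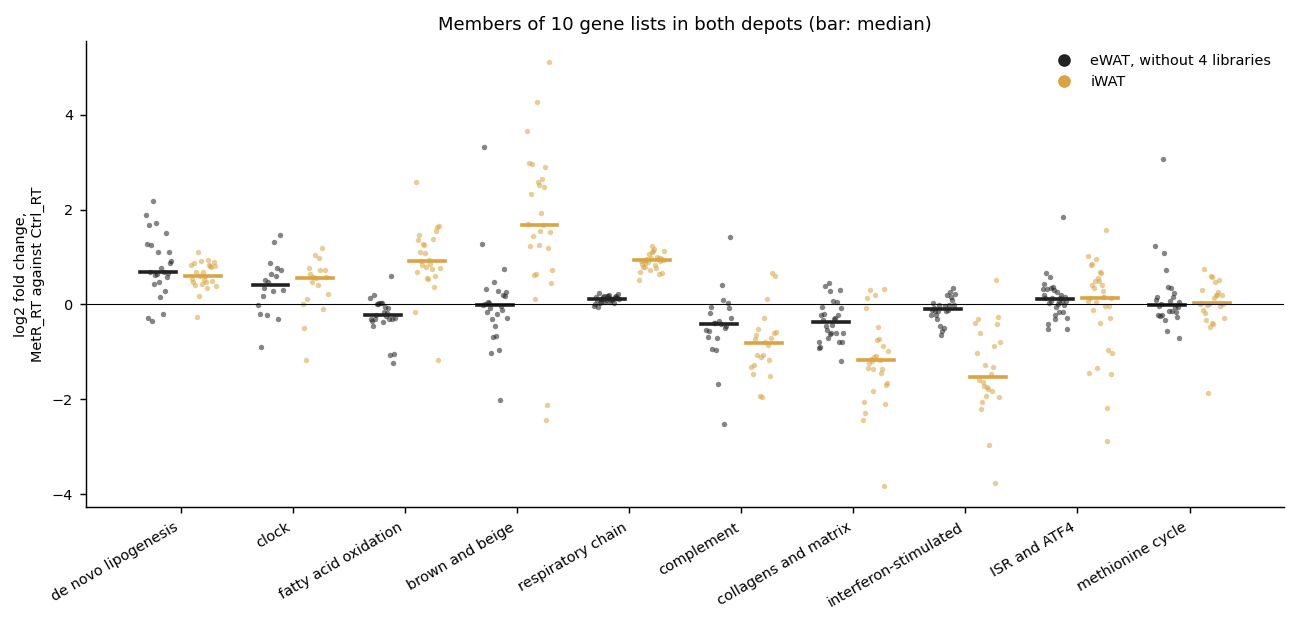
Log2 fold change of MetR_RT against Ctrl_RT for each member of 10 gene lists in eWAT without the 4 libraries (black) and in iWAT (yellow), with the median of each list as a bar. De novo lipogenesis has medians of 0.68 and 0.61, whereas fatty acid oxidation has -0.21 in eWAT and 0.91 in iWAT and interferon-stimulated genes have -0.09 and -1.53.

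Where members of the matrix and interferon lists had a called difference, the eWAT change lay above that of iWAT. Of the collagen and matrix list, 19 of 28 genes were called lower in iWAT (median log2 fold change -1.18) and the eWAT change was above it for 3, for none with the mouse as a block and for 2 without the 4 eWAT libraries. Of 24 interferon-stimulated genes, 19 were called lower in iWAT and none in eWAT, and the difference was called for 3, for 5 with the block and for 13 with the block without the 4 mice, but for 0 without the 4 eWAT libraries and no block. Il1rl1, the receptor of interleukin 33, was 2.53 to 6.12 CPM in eWAT Ctrl_RT (median 3.98), 3.98 to 9.49 CPM in eWAT MetR_RT (median 5.53), 8.07 to 98.6 CPM in iWAT Ctrl_RT (median 18.4) and 3.16 to 7.82 CPM in iWAT MetR_RT (median 3.92). The iWAT controls had the highest median, their lowest libraries overlapped eWAT MetR_RT, and the log2 difference was 3.60 ± 0.63 (adjusted p = 0.0124). Ccr2, a chemokine receptor of monocytes, had a difference of 2.08 ± 0.37. P4ha2, a prolyl hydroxylase of collagen, had 0.96 ± 0.16 and Csgalnact1, an enzyme of chondroitin sulfate synthesis, 1.54 ± 0.25, each with an adjusted p of 0.0124. These 4 and Snap47 (-0.60 ± 0.10) stayed called with the block, without the 4 eWAT libraries, and with both. Nr1d1 rose in iWAT of the same mice as well, which shares their time of sacrifice, with a log2 fold change of 1.05 ± 0.14. The difference of -0.09 ± 0.20 between the depots did not pass the test (adjusted p = 0.982).

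**Figure D5:**
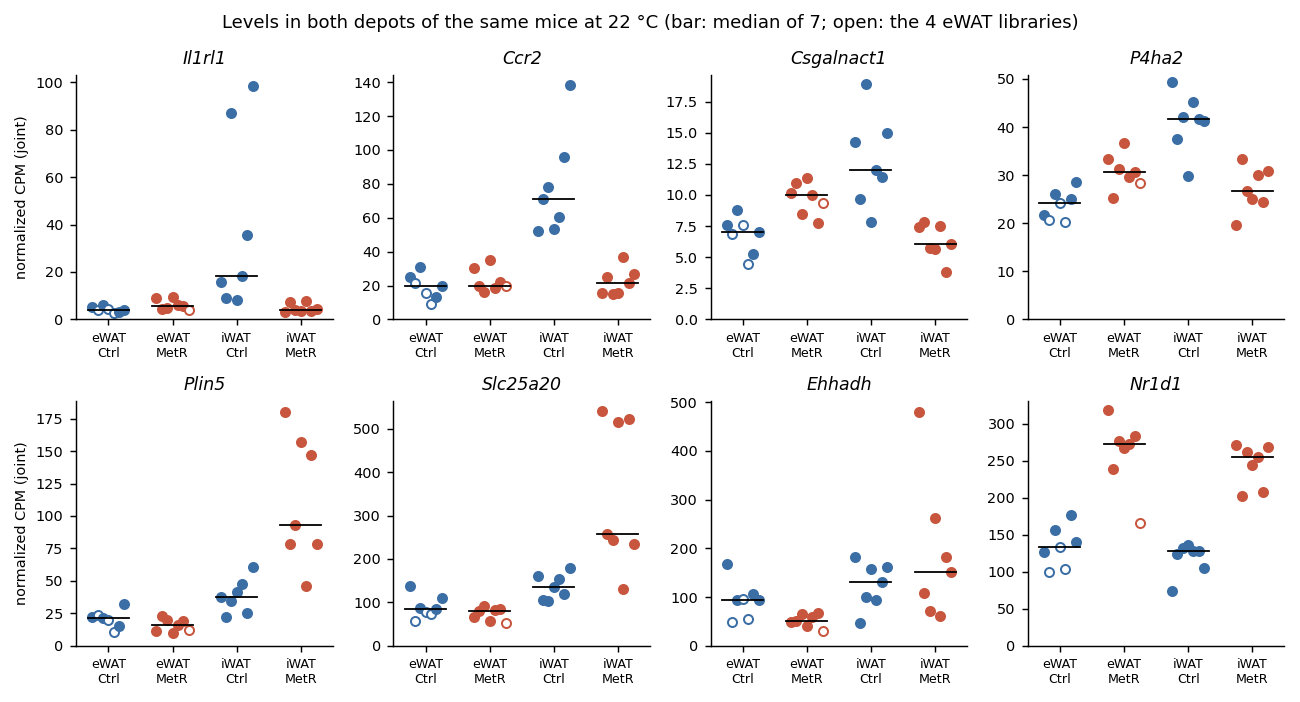
Levels of 8 genes in both depots of the same mice at 22 °C in normalized CPM of the joint fit (bars, medians of 7; open circles, the 4 eWAT libraries). For Il1rl1 the iWAT Ctrl_RT libraries reach 98.6 CPM while all other groups stay below 10 CPM, and for Nr1d1 both depots show higher medians under restriction.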

How the data were processed

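The tables the authors deposited hold raw counts of each gene in each library, as whole numbers without normalization. Their methods name STAR 2.7.9a with the mm10 genome, and both featureCounts 2.0.3 and Salmon 1.9.0 for counting, so which of them made the tables is not settled here. The libraries were made from polyA-selected RNA and sequenced as read pairs. Columns were matched to samples by the library name in the sample's description (110 of 110 matched), and groups came from the titles. The annotation is not fully settled either: gene symbols are those of the deposited identifiers, of which 51948 of 56884 had a symbol.

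Genes with at least 10 counts over the eWAT libraries were tested with edgeR 4.0.16 in R 4.3.3 (TMM factors, quasi-likelihood F test) in a model of diet, temperature and their interaction, with Benjamini-Hochberg adjustment over all genes tested. Standard errors were taken from the fit as |log2 fold change| over the root of the F statistic. The repeat dropped Ctrl_RT replicates 2, 4 and 5 and MetR_RT replicate 7. The study's methods exclude the same number of libraries per group, by principal component analysis, without naming them. The depot difference was tested in a joint edgeR fit of the 28 libraries of eWAT and iWAT at 22 °C, with the mouse as a block as an alternative because both depots came from the same mice. P-values of the eWAT fits measure the spread between single mice. The joint fit without the block treats the 2 libraries of a mouse as independent. Total counts of 22021114 to 31508742 leave genes of 1 CPM with few counts and wide errors. The other settings tried were limma 3.58.1 (voom), DESeq2 1.42.0 alone or shrunken by apeglm 1.24.0, RLE factors, other filters, glmTreat, the replicate number as a block and the omission of each library. The fits were tested on simulated data.

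Described were all genes called with all libraries, the 12 calls of the repeat with the lowest p and the 12 with the largest fold at 1 CPM or more, up to 4 members of each pathway list by p with all libraries and any called, the 12 genes with the lowest p for the depot difference, and the markers on which libraries stood apart. Only some of these are named. Members named beyond this rule were named after their values were seen. The members and lists were chosen with earlier results of these data known. Gene positions and exon overlaps are those of GENCODE vM21 and promoters those of RefSeq, both on GRCm38.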

Additional observations from a re-analysis of the deposited data

Results flagged for a closer look

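In 11 of 136 pairs of a gene and a group examined, 1 library lay far from the other 6 by Dixon's test. Chance alone marks about 1 group in 20. MetR_RT replicate 7 was the lowest of its group for Spred2 (45.9 CPM), Mpp1 (87.1 CPM), Pnpla2 (1145 CPM, or 1150 rounded), Pparg (142 CPM) and Cry2 (74.3 CPM), and the highest for 4930502A04Rik (0.479 CPM). Ctrl_RT replicate 2 was the highest control for Pdia3 (525 CPM) and Tanc2 (98.8 CPM). Ctrl_RT replicate 5 was the lowest control for Gm20544 (9.43 CPM) and the highest for Rbm38 (37.2 CPM). These 3 libraries are among the 4 left out in the repeat. MetR_RT replicate 1, which stayed in, was the highest of its group for Postn (99.1 CPM).

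For 8 named genes the response differed between eWAT and iWAT by the test of the difference in the joint edgeR fit. The log2 difference, eWAT minus iWAT, was -3.87 for Gk, the glycerol kinase, -1.91 for Plin5, -1.65 for Slc25a20, 0.96 for P4ha2, 1.54 for Csgalnact1, -0.60 for Snap47, 3.60 for Il1rl1 and 2.08 for Ccr2. With the mouse as a block, Gk (adjusted p = 0.0432 to 0.319) and Plin5 (0.0162 to 0.0539) were no longer called. In eWAT, Gk was highest in Ctrl_RT replicate 2, at 214 CPM, against 9.33 to 72.4 CPM in the other controls.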

How the results depend on the processing

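With all libraries the 6 calls became 83 with DESeq2 and apeglm (66 higher, 17 lower), 131 with DESeq2 alone (81, 50), 60 with filterByExpr (40, 20), 68 with voom (33, 35), 3 without a filter, 3 with robust estimation, 0 with glmTreat (918 at an unadjusted p under 0.05), 0 with only the 22 °C libraries and 32 without the 4 libraries. Omission of 1 library gave 0 to 2487. Without the 4 libraries the 32 calls became 120 with DESeq2 and apeglm (65, 55), 166 with DESeq2 alone (80, 86), 77 with voom (23, 54), 0 with glmTreat (869 unadjusted) and 1 with only the 22 °C libraries. Omission of a further library gave 11 to 52. RLE factors gave 6 and 33. The depot difference, 437, became 1304 with DESeq2, 782 with filterByExpr and 239 with the mouse as a replicate block, and 225 to 674 with 1 eWAT library left out. The causes were not tested. Over all genes tested, the median log2 fold change was -0.13 with all libraries and -0.02 with voom.

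The replicate numbers were tried as a pairing of Ctrl_RT with MetR_RT mice. With this block 10 genes were called with all libraries and 55 without the 4, 22 of them among the 32. The deviations of same-numbered libraries correlated over 0.1 in 3 of 7 pairs, and 1 of 7 matched its own number best. The check took in the 4 libraries that stood apart on genes of neighbouring organs, so it cannot decide whether the numbers pair the mice.

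Among the named genes no log2 fold change changed sign where it was called. The TMM factors were 1.064 to 1.232 in the 4 libraries and 0.8494 to 1.092 in the other 10, and a higher factor lowers the normalized CPM. The gap in mature adipocyte sums between the 4 libraries and the other 10 therefore depends in part on these factors. Sums without them are not reported here. Genes near 1 CPM are limited by depth.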
